A study of Drosophila melanogaster with 33 samples.

Results

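The sites of both Polycomb complexes were compared within S2-AbdA cells, through the deposited ChIP-seq peak lists of dRing, a subunit of Polycomb repressive complex 1 (PRC1), and of E(z), the catalytic subunit of PRC2. Peaks on chromosomes M, U, Uextra and those ending in Het were left out, which left 8126 of the 13173 peaks of the dRing and E(z) lists on all chromosomes, namely 4168 dRing and 3958 E(z) peaks on the left and right arms of chromosomes 2 and 3, on X and on chromosome 4. Peaks of the lists that overlapped by at least 1 bp were joined, which gave 6010 regions. Of these, 1913 held dRing and E(z) peaks (shared regions), 2063 held dRing alone and 2034 held E(z) alone. Both lists came from S2-DRSC cells, a late-embryo-derived Drosophila melanogaster line, stably transfected with HA-tagged AbdA, the Abdominal-A Hox protein (genotype HA::AbdA), and treated with 10 µM copper sulphate for 24 h. The untransfected wild-type S2-DRSC cells, which supplied a pair of comparison lists, received the same copper. The series holds 33 samples, of which 4 are the dRing and E(z) samples of S2-AbdA cells, with 2 replicates per antibody and 1 list for both. The labels do not give the promoter of the transgene, whether the line is 1 clone, or whether replicates came from separate cultures.

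PRC2 methylates histone H3 at lysine 27 through the SET domain of E(z). PRC1 holds dRing (Sce), a RING-domain ubiquitin ligase for histone H2A, and its Polycomb subunit binds methylated lysine 27. In flies both complexes are recruited to Polycomb response elements, where DNA-binding proteins such as GAF (GAGA factor) can take part, and they keep Hox and other developmental genes silent. PRC1 has also been found at active promoters, away from PRC2. The other lists of S2-AbdA cells were HA (HA-tagged AbdA), Rpb3 (a subunit of RNA polymerase II), Pol II phosphorylated on serine 2 of its tail repeats (Ser2P, the elongating form), M1BP (Motif 1 binding protein, a factor of promoters with paused polymerase) and GAF.

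Because each antibody had 1 list, no spread between replicates exists and no difference between the classes was tested. Intervals given below are exact Clopper-Pearson 95% intervals, which cover counting error only and treat neighbouring regions as separate observations. The lists hold no read counts, so depth is unknown, and the HA antibody's background in S2 cells was not analysed here. The lists differed in how many peaks lay on the chromosomes left out, which was 37.0% for dRing, 39.6% for E(z), 43.1% for Ser2P and 23.1% for M1BP, but 0.386% for HA, 0.609% for GAF and 0.629% for Rpb3. Per the labels, HA and GAF had input code C and the other 5 antibodies code D. The genome build was dm3, and without its sequence or annotation no gene, promoter or motif was assigned to a region. The lists' own coverage of the arms, each taken up to the last peak end of any list, was 1.84% for dRing and 2.06% for E(z), against 10.0% for HA, 6.73% for Ser2P, 5.78% for GAF, 5.36% for Rpb3 and 2.82% for M1BP.

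The first question was how far the PRC1 and PRC2 lists coincide. Of the dRing peaks, 50.5% (2105 of 4168, 95% interval 49.0 to 52.0%) overlapped an E(z) peak, and 48.6% of the E(z) peaks (1924 of 3958, 47.0 to 50.2%) overlapped a dRing peak. Shared regions thus made up 31.8% of all regions, dRing-alone regions 34.3% and E(z)-alone regions 33.8%. In the S2 lists 69.4% of dRing peaks lay on E(z) and 47.6% of E(z) peaks lay on dRing, and that dRing list was shorter, with 3061 peaks on the arms. By covered bases, 58.2% of the dRing sequence lay in E(z) peaks and 52.1% of the E(z) sequence in dRing peaks. The Jaccard index, the bases covered by both lists divided by those covered by either, was 0.379.

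Where the peaks met, they met closely. The 2116 overlapping pairs shared a median of 415 bp, and their centres lay a median of 57.3 bp apart, with 63.4% of pairs within 100 bp. In 1390 pairs the shorter peak lay wholly inside the other: the dRing peak was inside the E(z) peak in 1130 pairs and the E(z) peak inside the dRing peak in 260. E(z) was the wider partner in 72.9% of pairs. The 1 bp threshold decided few regions, since 2094 of the pairs shared at least 50% of the shorter peak and only 2 shared under 50 bp, the smallest overlap being 9 bp. Just outside the threshold, 15 dRing-alone and 10 E(z)-alone peaks lay under 100 bp from a peak of the other list, the smallest gap being 16 bp in each case. Regions with 1 peak of each kind numbered 1765, and 137 held 2 or more dRing peaks, 5 at most, under 1 E(z) peak.

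Most peaks of 1 complex alone had a peak of the other within 10 kb. The median gap from a dRing-alone peak to the nearest E(z) peak was 6.94 kb, with 16.6% within 1 kb and 59.1% within 10 kb. From an E(z)-alone peak to the nearest dRing peak it was 7.10 kb, with 21.0% within 1 kb and 58.4% within 10 kb. The shares that the density of peaks alone would give were not computed, so these values do not show that the complexes lie near each other.

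Shared regions were wider. Their median width was 621 bp (quartiles 433 and 989 bp), against 316 bp (227 and 443 bp) for dRing alone and 335 bp (247 and 472 bp) for E(z) alone. A region that joins several peaks is wider by construction, but the single peaks differed too. dRing peaks had a median width of 488 bp in shared regions and 316 bp alone, and E(z) peaks 540 bp and 335 bp. A wider peak also meets the 1 bp rule more readily, and the part of this in the difference was not tested. Regions over 2000 bp numbered 158 among the shared, 5 among the dRing-alone and 13 among the E(z)-alone ones.

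**Figure D1:**
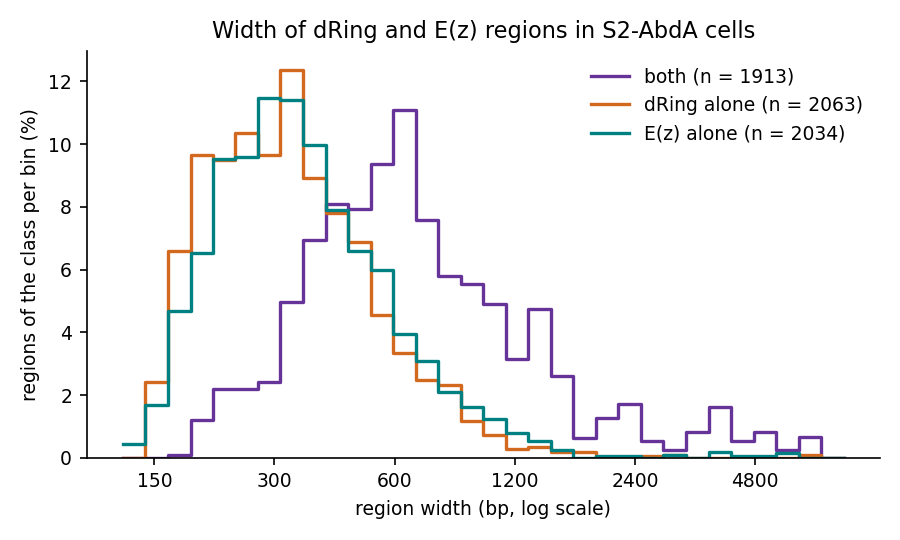
Width of the regions in bp (log scale) against the percent of each class per bin. The shared regions, with a median of 621 bp, lie to the right of the dRing-alone (316 bp) and E(z)-alone regions (335 bp) and have a tail over 2000 bp.

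The score of a peak is the authors' own and its unit is not stated, so it served only to rank peaks within a list, as a percentile where the highest rank is near 100. High-ranking peaks of each factor lay on the other factor more often. In bands of 20 percentile points from the lowest to the highest, the share of dRing peaks on E(z) was 24.7%, 35.3%, 47.2%, 67.0% and 78.3%. For E(z) peaks on dRing the bands gave 32.1%, 37.9%, 44.2%, 50.2% and 78.7%. Neighbouring 95% intervals of the dRing series did not overlap, whereas those of the E(z) series overlapped up to the fourth band and only the last band stood apart. Peak width moved with rank, from a median of 276 to 620 bp for dRing and from 329 to 683 bp for E(z), and its part in these shares was not tested. The median rank percentile of a dRing peak was 66.6 in shared regions and 34.5 alone, and that of an E(z) peak 63.6 and 39.6.

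**Figure D2:**
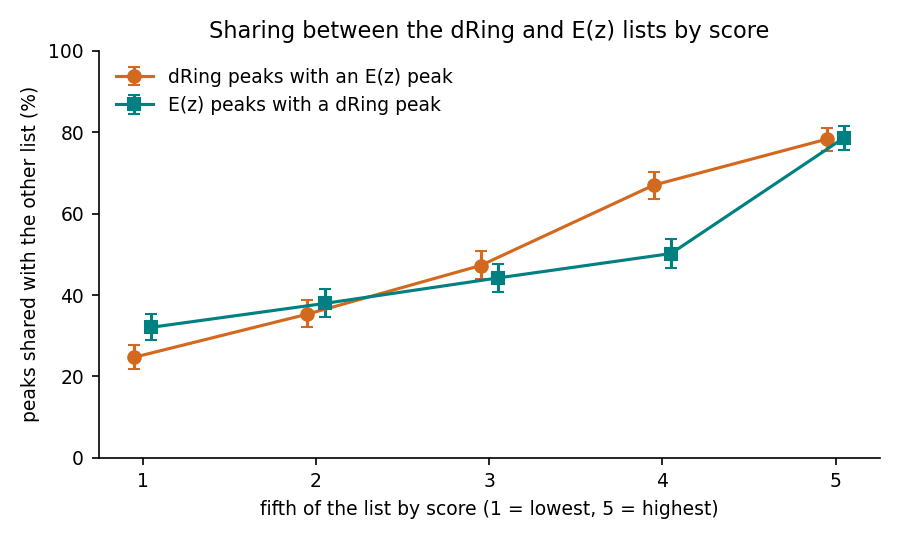
Percent of dRing peaks (circles) and E(z) peaks (squares) that overlap the other list, by bands of 20 percentile points of their own list's score, with exact 95% intervals as bars. Both series rise, to 78.3% and 78.7% in the highest band.

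Even among the highest ranks some sites carried 1 complex without a peak of the other. The highest-ranking dRing-alone region lay at X 17661848 to 17662852 (score 159) on HA and GAF peaks, and it had dRing and E(z) peaks in S2 cells. The next, at 2R 19508755 to 19509356 (score 143) and 3R 20906101 to 20906612 (score 142), also lay on HA and GAF, with dRing but no E(z) in S2 cells. The fourth and the fifth, at 2L 5421434 to 5422226 and 3L 21469492 to 21470400, also held HA and GAF. All 5 named dRing-alone regions had HA and GAF peaks, and none had a Ser2P or M1BP peak. Over all 6010 regions HA lay at 58.0%, GAF at 49.0%, Ser2P at 46.4% and M1BP at 39.1%. The HA count did not extend to the 50 highest-ranking dRing-alone regions, of which 26 had HA.

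The E(z)-alone region of highest rank, with a score of 155, spanned 3R 788338 to 788800 and held HA and M1BP peaks. The next pair, at 2R 14382292 to 14382830 (score 144) and 3R 27830665 to 27831215 (score 126), lay on Ser2P and M1BP. These first 3 had dRing and E(z) peaks in S2 cells. The remaining regions, at 3L 2554100 to 2554627 (score 121) and 3R 6156867 to 6157504 (score 112), held HA, Rpb3 and M1BP. The 3L region also held Ser2P. Both had E(z) but no dRing in S2 cells. All 5 named E(z)-alone regions had an M1BP peak and none had GAF, where M1BP lay at 39.1% and GAF at 49.0% of all regions.

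The 5 shared regions of highest rank showed a further pattern. They lay at 2L 347795 to 348501, 3R 11451381 to 11452017, 3L 17730150 to 17731287, 2L 20303173 to 20303649 and 3R 13407968 to 13408552. All had Ser2P, 4 had M1BP, and none had HA, Rpb3 or GAF. Over the 50 highest-ranking regions of each class, M1BP lay at 48 shared, 34 E(z)-alone and 0 dRing-alone regions, where it lay at 39.1% of all 6010 regions. In the same order GAF lay at 3, 12 and 43 (49.0% of all regions) and Ser2P at 48, 24 and 0 (46.4% of all regions). HA lay at 3, 27 and 26, so the E(z)-alone and dRing-alone counts differed by 1 region and were near the 58.0% of all regions.

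The next question was what else occupied each class in the same cells, beginning with AbdA itself. HA peaks lay at 58.0% of all 6010 regions. E(z)-alone regions carried HA most often, at 69.1% (1406 of 2034, 67.1 to 71.1%), against 53.6% of dRing-alone (1105 of 2063, 51.4 to 55.7%) and 51.1% of shared regions (977 of 1913, 48.8 to 53.3%). Seen from AbdA, 12.8% of the 10312 HA peaks on the arms touched an E(z)-alone region, 9.95% a dRing-alone and 8.90% a shared one. These HA peaks had median rank percentiles of 73.2, 58.3 and 72.8 in the HA list, so those at dRing-alone regions ranked lower than those at E(z) sites. Where HA was present it covered the whole region in 94.0% of E(z)-alone cases, 72.3% of dRing-alone and 74.8% of shared cases, and the median distance between centres was 185, 315 and 245 bp. HA peaks at these sites were wide, with medians of 1081, 1246 and 1294 bp.

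GAF was most frequent at dRing-alone regions and M1BP least frequent there. GAF peaks lay at 49.0% of all regions, and at 57.2% of dRing-alone (1181, 55.1 to 59.4%), 46.8% of shared (896, 44.6 to 49.1%) and 42.6% of E(z)-alone regions (866, 40.4 to 44.8%). M1BP peaks lay at 39.1% of all regions, but at 21.1% of dRing-alone (435, 19.3 to 22.9%), 44.4% of E(z)-alone (903, 42.2 to 46.6%) and 53.0% of shared regions (1014, 50.7 to 55.3%). GAF without M1BP was found at 47.2% of dRing-alone regions and 30.6% of E(z)-alone ones. M1BP without GAF was found at 11.1% and 32.4%. M1BP also sat closer to E(z): the median distance between the centres was 27.5 bp at E(z)-alone regions (quartiles 10.5 and 83.5 bp) and 141 bp at dRing-alone regions (65.5 and 305 bp). For GAF the order was the other way, with 116 bp at dRing-alone and 173 bp at E(z)-alone regions.

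HA moved with these factors within each class. With GAF and M1BP, HA lay at 84.8% of E(z)-alone, 72.0% of dRing-alone and 77.9% of shared regions, and with neither it lay at 44.3%, 35.8% and 39.1%. With GAF without M1BP the shares were 77.4%, 59.0% and 78.1%. With M1BP without GAF they were 74.7% of E(z)-alone and 64.5% of dRing-alone regions, but 23.3% of the 756 shared ones (20.3 to 26.5%). Of those 756 regions, 538 carried Ser2P and M1BP alone and so had no HA by definition, and HA lay at 80.7% of the other 218 (74.9 to 85.7%). The E(z)-alone and dRing-alone shares still include 69 and 10 regions with that combination. The 80.7% is therefore not comparable with them.

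The Rpb3 and Ser2P lists gave different shares. Both report RNA polymerase II, and the Ser2P peaks are broad, with a median of 1350 bp against 553 bp for Rpb3. Ser2P without Rpb3 is thus a difference between lists and does not show a form of polymerase. Rpb3 lay at 51.2% of all regions and at 54.1% of E(z)-alone (1100, 51.9 to 56.3%), 52.9% of dRing-alone (1091, 50.7 to 55.1%) and 46.4% of shared regions (888, 44.2 to 48.7%). The intervals of the classes that held 1 complex alone overlapped. Ser2P lay at 46.4% of all regions and at 65.8% of shared (1258, 63.6 to 67.9%), 40.7% of E(z)-alone (827, 38.5 to 42.8%) and 34.2% of dRing-alone regions (706, 32.2 to 36.3%). Ser2P without Rpb3 marked 40.7% of shared regions, 16.8% of E(z)-alone and 8.72% of dRing-alone ones, whereas Rpb3 together with Ser2P marked 25.1%, 23.8% and 25.5%. At Ser2P without Rpb3, HA lay at 10.9% of shared, 34.5% of E(z)-alone and 50.6% of dRing-alone regions. Without the shared regions that carried Ser2P and M1BP alone, which lack HA by definition, it lay at 35.4% (29.4 to 41.8%) of the other 240. The E(z)-alone and dRing-alone shares still include 69 and 10 regions of that kind, so the 35.4% is not comparable with them. With Rpb3 and no Ser2P, HA lay at 79.9% of shared, 81.3% of E(z)-alone and 66.2% of dRing-alone regions. Rpb3 enclosed the region in 82.2% of dRing-alone cases and in 44.8% of E(z)-alone cases.

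**Figure D3:**
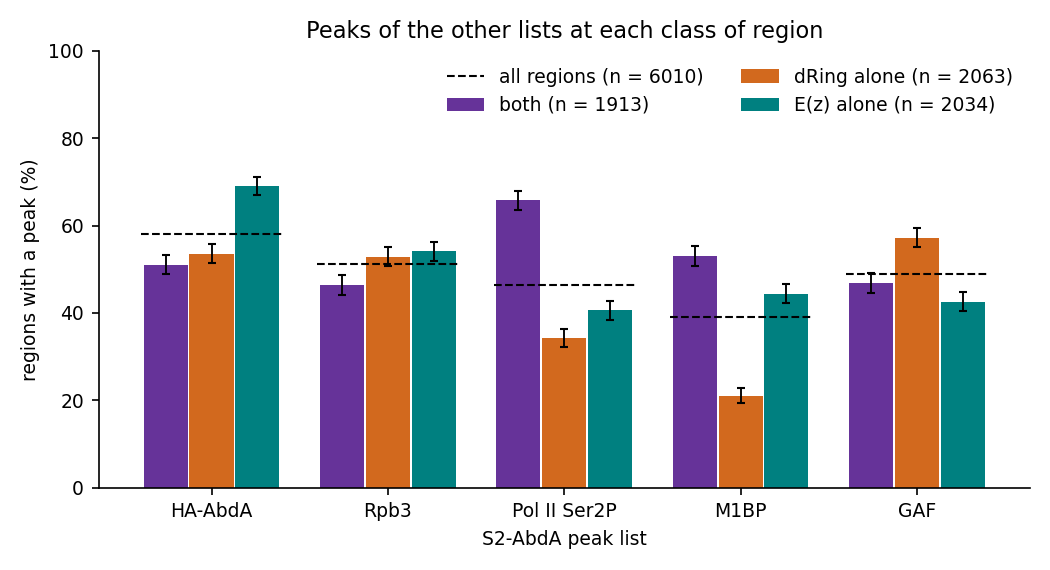
Percent of regions of each class with a peak of the HA-AbdA, Rpb3, Ser2P, M1BP or GAF list of S2-AbdA cells, with exact 95% intervals as bars and the share over all 6010 regions as a dashed line. HA is highest at E(z)-alone regions (69.1%), GAF at dRing-alone regions (57.2%), and Ser2P (65.8%) and M1BP (53.0%) at shared regions.

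A region with no peak of any of these 5 lists was rare among shared regions, at 16 of 1913 (0.836%). There were 110 such E(z)-alone (5.41%) and 294 such dRing-alone regions (14.2%), and 420 among all 6010 regions. The 294 dRing-alone regions were narrow, at a median of 283 bp, and low in rank, at a median percentile of 25.9. A dRing peak of S2 cells lay at 23.5% of them and an E(z) peak at 1.70%. GAF was the only other peak at 240 of all 6010 regions. These were 186 dRing-alone (9.02%), 38 E(z)-alone (1.87%) and 16 shared regions (0.836%).

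The most frequent combination at shared regions was Ser2P with M1BP and nothing else. It held 617 of all 6010 regions, namely 538 shared (28.1%), 69 E(z)-alone (3.39%) and 10 dRing-alone regions (0.485%). The combination of HA, Rpb3 and GAF, by contrast, held similar parts of each class, with 207 shared (10.8%), 206 E(z)-alone (10.1%) and 203 dRing-alone regions (9.84%). The 538 regions were wide and high in rank, at a median of 980 bp (quartiles 590 and 1493 bp) and at median percentiles of 81.1 in the dRing and 90.5 in the E(z) list. In the other 1375 shared regions these values were 570 bp, 59.2 and 49.3. In S2 cells, dRing and E(z) peaks lay together at 92.8% of the 538 regions and at 52.7% of the 1375. Of the dRing peaks in the 538 regions, 71.7% shared their exact score with another dRing peak on the arms, against 27.8% in the other shared regions, and for E(z) peaks these shares were 46.6% and 26.6%. The Ser2P, M1BP, dRing and E(z) lists are the 4 with most peaks on the chromosomes left out, as given above. The part of sequence present in several copies, or of the input sample, in this combination was not tested.

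These 538 regions weighed on the shares of the shared class. Without the Ser2P and M1BP combination, HA lay at 71.1% of shared, 71.6% of E(z)-alone and 53.8% of dRing-alone regions, and GAF lay at 65.2% of shared, 57.5% of dRing-alone and 44.1% of E(z)-alone regions. Rpb3 then lay at 64.6%, 56.0% and 53.1% of shared, E(z)-alone and dRing-alone regions, and M1BP at 34.6%, 42.4% and 20.7%. Ser2P still lay most often at shared regions, at 52.4%. The removal raises the HA, GAF and Rpb3 shares and lowers those of M1BP and Ser2P by construction, and it was chosen after the combination was seen. The overlap of the lists fell too, to 41.4% of dRing peaks and 41.3% of E(z) peaks.

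The shares also moved with rank. For shared regions the rank was the mean of the best dRing and best E(z) percentile. From the lowest to the highest band, HA lay at 75.5%, 71.7%, 63.7%, 53.0% and 19.8% of shared regions, and M1BP at 39.1%, 34.3%, 36.3%, 52.2% and 83.8%. The Ser2P and M1BP combination made up 0.909% of the lowest band and 71.6% of the highest. In the other 1375 shared regions HA ranged from 68.3% to 76.2% over the bands. In dRing-alone regions GAF went from 48.9% in the lowest to 77.3% in the highest band while Ser2P lay at 33.1% and 13.3%. In E(z)-alone regions M1BP went from 38.3% to 68.0% and HA lay between 67.0% and 72.9% in the lower 4 bands and at 52.7% in the highest. The Ser2P and M1BP combination made up 22.5% of that highest band, and HA lay at 67.9% (59.2 to 75.8%) of its other 131 regions, against 67.4% to 74.9% in the lower bands without the combination. In both classes the combination lacks HA by definition, so leaving it out raises HA by construction, most where it is most frequent. Its part in the fall of HA with rank was not tested.

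**Figure D4:**
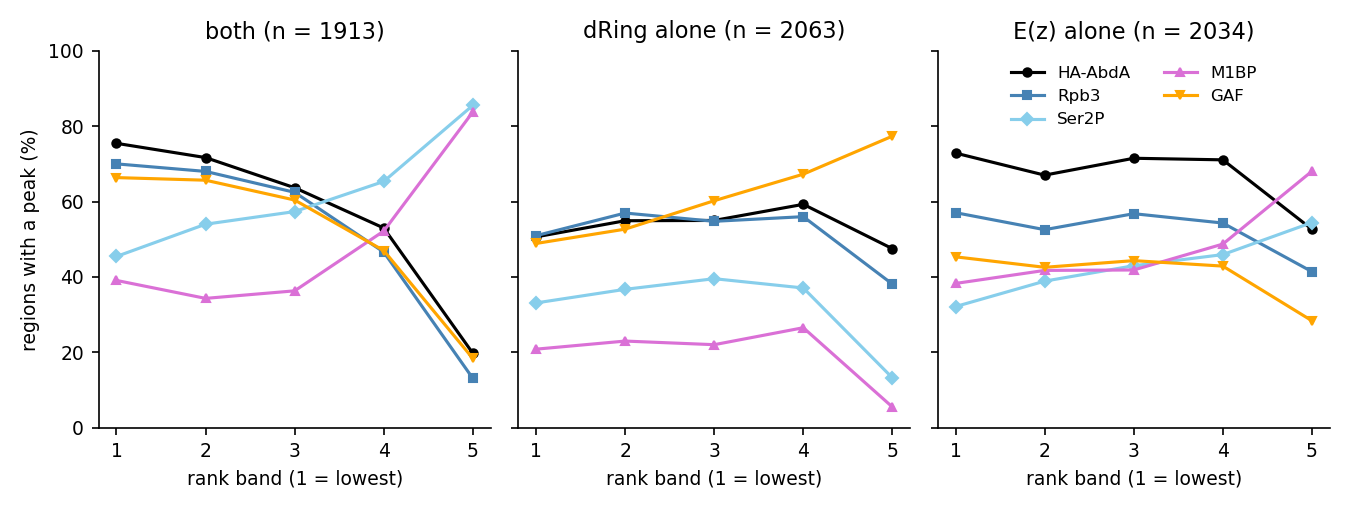
Percent of regions with each factor's peak by rank band (20 percentile points of the list's score, 1 lowest and 5 highest), for shared regions (left), dRing-alone (middle) and E(z)-alone regions (right). HA falls from 75.5% to 19.8% over the shared bands while M1BP reaches 83.8%, and GAF reaches 77.3% in the highest dRing-alone band.

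At matched widths the shares of the classes still differed, but the leading class for HA turned with width. Among regions of 301 to 500 bp, HA lay at 75.5% of E(z)-alone, 60.8% of shared and 55.9% of dRing-alone regions, and M1BP at 36.3%, 46.7% and 18.4%. GAF lay at 55.9% of E(z)-alone, 57.2% of shared and 61.4% of dRing-alone regions of that width. At up to 300 bp, HA was most frequent at the 137 shared regions, at 76.6%, against 70.4% of E(z)-alone and 52.7% of dRing-alone regions. At 501 to 1000 bp the order was that of 301 to 500 bp, with 61.5% of E(z)-alone, 56.9% of shared and 50.8% of dRing-alone regions. At 1001 to 2000 bp HA lay at 61.1% of the 36 dRing-alone, 31.6% of the 57 E(z)-alone and 29.2% of the 312 shared regions. The turns rest on bands where the leading class held only 137 and 36 regions, and no intervals were computed by width. In each width band up to 2000 bp, M1BP was less frequent and GAF more frequent at dRing-alone than at E(z)-alone regions. At up to 300 bp, M1BP lay at 59.6% of E(z)-alone and 25.7% of dRing-alone regions, and GAF at 27.7% and 48.6%. Among the 158 shared regions over 2000 bp, Ser2P lay at 96.2%, M1BP at 74.1% and HA at 11.4%. The Ser2P and M1BP combination, which lacks HA by definition, was left in at every width. Its median width was 980 bp at shared regions.

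The lists of S2 cells, which had no part in forming the classes, gave the state of the same regions in cells without the transgene. Over all regions 40.6% had a dRing and 59.7% an E(z) peak in S2 cells. Of shared regions, 68.1% had dRing (66.0 to 70.2%) and 88.9% had E(z) (87.4 to 90.3%), and 64.0% had both. E(z)-alone regions had E(z) in S2 cells in 80.1% of cases (78.3 to 81.8%) and dRing in 31.6% (29.5 to 33.6%). dRing-alone regions had dRing there in 23.9% of cases (22.1 to 25.9%) and E(z) in 12.6%. Thus 68.9% of the dRing-alone regions had neither in S2 cells, against 16.6% of E(z)-alone and 6.95% of shared regions. Among shared regions, HA lay at 42.8% of the 1224 that had both in S2 cells and at 73.7% of the 133 that had neither. Of the 1224, 499 carried Ser2P and M1BP alone and so had no HA by definition, and HA lay at 72.3% (68.9 to 75.5%) of the other 725. Of the 133, 1 carried that combination, and HA lay at 74.2% (65.9 to 81.5%) of the other 132. Leaving these regions out raises HA by construction, and more so among the 1224. The part of the combination in the difference was not tested. Among E(z)-alone regions HA lay at 74.4% of the 574 that had both and at 60.8% of the 337 that had neither. The 69 E(z)-alone regions with the combination were left in here, and 50.7% of them had both in S2 cells. The shorter dRing list of S2 cells limits what absence there can mean.

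The classes were spread over all arms. Shared regions made up from 28.9% of the regions of 2R to 35.7% of those of 2L, 32.6% of those of X and 10 of the 43 on chromosome 4. The X was sparser in every class and differed in partners. It held 11.6 shared regions per Mb, against 16.0 to 19.0 on the large autosomal arms. For dRing-alone regions these densities were 13.0 against 16.5 to 20.6 per Mb, and for E(z)-alone regions 11.0 against 17.1 to 19.5. HA lay at 33.8% of the shared regions of X against 45.7% to 58.6% on the large autosomal arms. Without the regions that carried Ser2P and M1BP alone these shares were 62.9% on X (54.3 to 70.9%) and 64.9% to 76.6%. The Ser2P and M1BP combination made up 46.2% of shared regions on X (40.0 to 52.4%) and 23.4% to 29.7% on the large autosomal arms. As the combination lacks HA by definition, leaving it out raises HA by construction, and more so on X. HA at E(z)-alone regions was also less frequent on X, at 56.1% against 69.0% to 73.5%, whereas at dRing-alone regions it was 57.9% against 50.5% to 56.6%.

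Along the arms, regions of each class were followed by their own class more often than its share of all regions. In each class, however, most regions were followed by a region of another class. A shared region was followed by another shared region in 43.1% of cases, dRing alone by dRing alone in 43.2% and E(z) alone by E(z) alone in 40.8%, where the classes made up 31.8%, 34.3% and 33.8% of all regions. The gap to the next region was shortest between shared regions, with a median of 0.705 kb, against 6.33 kb between dRing-alone and 8.63 kb between E(z)-alone neighbours. It was longest where a dRing-alone region was followed by an E(z)-alone one, at 10.7 kb. Within 10 kb, 64.0% of shared regions (61.8 to 66.1%) had another shared region, 52.8% of dRing-alone (50.7 to 55.0%) and 48.8% of E(z)-alone regions (46.6 to 51.0%) had another of their class. The Ser2P and M1BP combination moved with this order and spacing. Of the 822 shared regions followed by a shared one, 290 had that combination at both members. Within 1 kb of each other lay 448 of these neighbouring pairs, and in 248 of the 448 both members had the combination. Without the regions of that combination 47.5% of shared regions (44.8 to 50.2%) had another within 10 kb.

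Joined at gaps of up to 10 kb, the 6010 regions formed 2517 runs, of which 1237 were single regions and 45 held 10 or more. Of the 1280 runs with 2 or more regions, 27.5% held 1 class, 53.6% held 2 and 18.9% held all 3. The run with most shared regions spanned 92.7 kb at 2L 21451029 to 21543721 and held 26 shared and 2 E(z)-alone regions, covering 76.9% of the sequence. Ser2P lay at all 28 and M1BP at 7, against 46.4% and 39.1% of all regions. HA, Rpb3 and GAF lay at 0, against 58.0%, 51.2% and 49.0% of all regions. The run held 28 E(z), 62 dRing and 10 Ser2P peaks. The starts of neighbouring regions lay a median of 3.54 kb apart, and 4.5 to 5.5 kb apart in 13 of 27 cases. In the first part of the run the spacing was regular, with E(z) peaks that began at 0, 5.10, 10.2, 15.3, 20.3, 25.3 and 30.4 kb. Further along, some E(z) peaks lay closer together. Whether these regions are copies of a repeated sequence, and so not separate sites, was not tested. In S2 cells 26 of the 28 regions had E(z) and 11 had dRing.

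**Figure D5:**
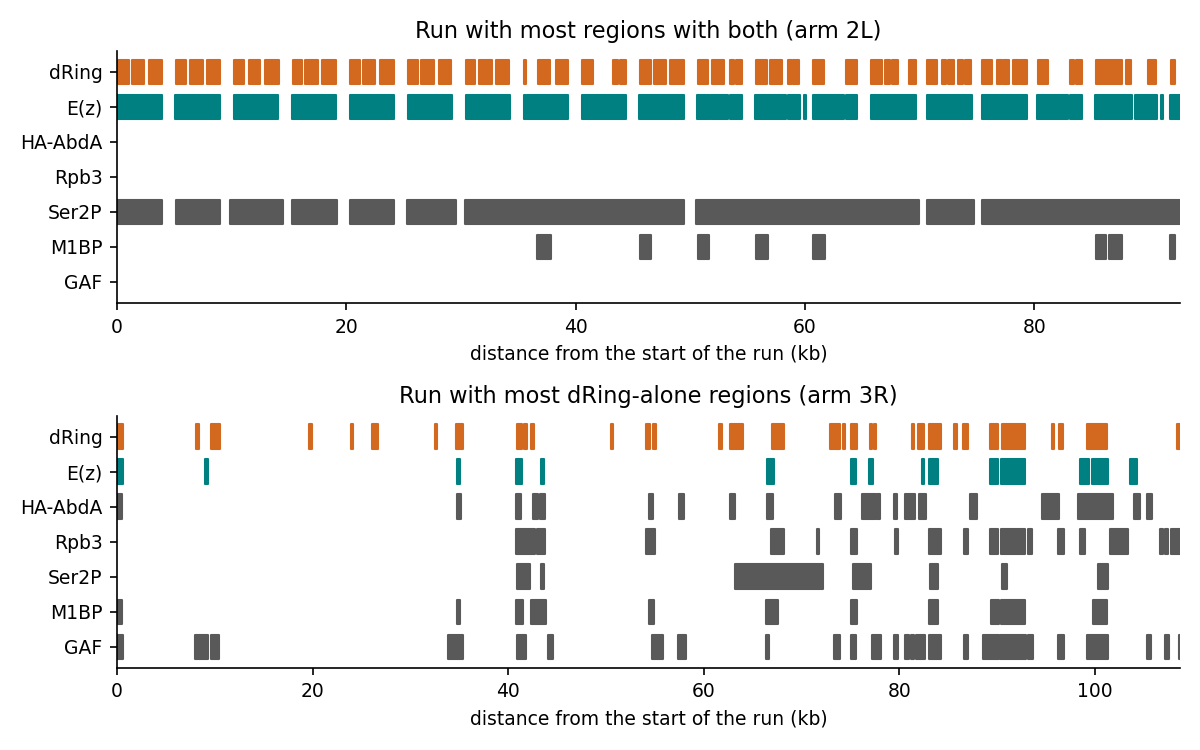
Peaks of the 7 S2-AbdA lists along the run with most shared regions (top, arm 2L) and along the run with most dRing-alone regions (bottom, arm 3R), as bars against the distance from the start of the run in kb. The upper run is filled by dRing, E(z) and Ser2P peaks with no HA-AbdA, Rpb3 or GAF peak, and the lower run holds 22 dRing-alone, 11 shared and 3 E(z)-alone regions among peaks of all 5 other lists.

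The other named runs mixed the classes, and HA ranged from 4 of 30 to 13 of 13 of their regions, where it lay at 58.0% of all regions. The run at 3L 603771 to 661660 (57.9 kb) held 16 shared, 12 dRing-alone and 1 E(z)-alone regions. HA lay at 21 of them (72.4%), Rpb3 at 19 (65.5%, against 51.2% of all regions) and GAF at 14 (48.3%, against 49.0% of all regions). At 2L 468938 to 491282 (22.3 kb) there were 10 shared and 3 dRing-alone regions, all 13 of them with HA and 11 with GAF. The run at 3R 8266986 to 8337040 (70.1 kb) held 14 shared, 10 dRing-alone and 6 E(z)-alone regions. Ser2P lay at 28 of these 30 and Rpb3 at 7, against 46.4% and 51.2% of all regions. HA lay at 4 and GAF at 2. Like the run at 2L 21451029, this run was rich in Ser2P and poor in HA, Rpb3 and GAF. Ser2P and M1BP alone lay at 6 of its regions, against 7 in the run at 2L 21451029.

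The run with most dRing-alone regions lay at 3R 25507933 to 25616649 (109 kb), with 22 of them beside 11 shared and 3 E(z)-alone regions. GAF lay at 22 of its 36 regions (61.1%) and HA at 18, the latter a smaller share than the 58.0% of all regions. The run at 2R 1579160 to 1647582 (68.4 kb) held 13 dRing-alone, 5 shared and 5 E(z)-alone regions, with Rpb3 at 17 of 23 (73.9%, against 51.2% of all regions) and HA at 14 (60.9%). GAF lay at 8 of the 23 (34.8%), a smaller share than the 49.0% of all regions.

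Runs rich in E(z)-alone regions held fewer of them. The leading one, at 3R 18983471 to 19052762 (69.3 kb), had 8 E(z)-alone, 5 shared and 3 dRing-alone regions. GAF lay at 15 (93.8%), Rpb3 at 14 (87.5%) and HA at 12 of 16. Over all 6010 regions these lay at 49.0%, 51.2% and 58.0%. At 3L 21001923 to 21035185 (33.3 kb), 7 E(z)-alone regions stood beside 2 of each other class, with HA at 9 of 11 (81.8%). At 3R 3916108 to 3952608 (36.5 kb), 7 E(z)-alone regions stood beside 5 of each other class, with Ser2P at 16 of 17 (94.1%, against 46.4% of all regions) and HA at 8 (47.1%).

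The widest shared regions belonged mostly to the Ser2P and M1BP combination. The widest spanned 6594 bp at X 21566906 to 21573499, where 4 dRing peaks lay under 1 E(z) peak. The next spanned 6583 bp at 3L 5108549 to 5115131. Both carried Ser2P and M1BP alone. The last of the 3 named, 6374 bp at 2R 18467949 to 18474322, also held HA and GAF. All 3 had dRing and E(z) peaks in S2 cells.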

How the data were processed

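ChIP-seq peak lists of S2-AbdA cells were analysed for dRing, E(z), HA, Rpb3, Ser2P, M1BP and GAF, with the dRing and E(z) lists of S2 cells. Per the submitters' processing notes, the authors' tools were BWA 0.7.12 and MACS2 and their build was dm3. Settings, and how replicates were combined, are not stated there. The files name the Ser2P peaks as broad. The deposited score of each peak has no stated unit. The genome at hand is Release 6, not the dm3 build that the notes name, so no sequence or gene was read.

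Lists were matched to samples by the labels. Starts are printed 1-based. Python 3.11.15, pandas 2.3.3, numpy 2.4.6 and scipy 1.17.1 gave overlaps (1 bp or more), regions, runs (gaps up to 10 kb) and exact Clopper-Pearson intervals. No test was run, since 1 list per antibody has no replicate spread. Overlap counts were compared with those of bedtools 2.31.1, where 0 of 42 differed, and the class code was tested on simulated data. The named regions were, per class, the 5 of highest score (shared: highest mean rank percentile), the 3 widest shared ones, and the runs with most shared (5), dRing-alone (3) and E(z)-alone (3) regions. Counts over the 50 of highest rank and the Ser2P and M1BP combination were added after values were seen. The members, classes and factors were chosen with earlier results of these data known.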

Additional observations from a re-analysis of the deposited data

Results flagged for a closer look

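The chromosomes left out hold signal that no comparison above used. There lay 37.0% of the dRing peaks and 39.6% of the E(z) peaks of S2-AbdA cells. On these chromosomes 76.7% of 2447 dRing peaks (95% interval 74.9 to 78.3%) overlapped E(z) and 70.9% of 2600 E(z) peaks (69.1 to 72.6%) overlapped dRing, against 50.5% and 48.6% on the arms. No group held 4 or more samples with values of their own, so no sample was compared with the others of its group.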

How the results depend on the processing

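No paired analysis was possible because both replicates of an antibody share 1 list, and for the same reason no replicate could be left out. The overlap shares of dRing and of E(z) peaks, 50.5% and 48.6%, stayed within their intervals with 50% overlap, with the higher-scoring 50% of each list and without peaks on 4 or more other lists. They were 41.4% and 43.6% with peak centres within 250 bp, and 60.2% and 57.4% on all chromosomes, where shared regions numbered 3728. The share of dRing peaks was 52.2% with lists of equal length. The higher-scoring 50% of each list gave 950 shared, 1017 dRing-alone and 1023 E(z)-alone regions, fewer by construction. Without regions over 1000 bp, an alternative chosen after seeing the data like the removal of the Ser2P and M1BP combination, the shares were 41.9% and 42.4%. That removal gave 41.4% and 41.3%.

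HA was most frequent at E(z)-alone regions in all 6 alternatives run, but the order of the other classes turned in 4. Its lead was within counting error without the Ser2P and M1BP combination (69.5 to 73.5%, against 68.6 to 73.4% at shared regions). The same held with the higher-scoring 50% of the dRing and E(z) lists (60.6 to 66.6%, against 57.3 to 63.4% at dRing-alone regions). HA at shared, dRing-alone and E(z)-alone regions was 38.1%, 32.5% and 52.7% with the higher-scoring 50% of each factor list, and 34.7%, 60.4% and 63.6% with the higher-scoring 50% of the dRing and E(z) lists. With 50% overlap it was 48.0% at dRing-alone and 48.8% at shared regions. Without regions over 1000 bp it was 60.2% at shared regions, and without the Ser2P and M1BP combination 71.1% at shared and 71.6% at E(z)-alone regions. Ser2P kept its order in all 6 and M1BP in 5, the exception being that removal. GAF was highest at dRing-alone regions in 5 of 6, again except that removal. With the higher-scoring 50% of each factor list and without regions over 1000 bp, however, the intervals of the leading and the next class overlapped for M1BP and for GAF. Rpb3 kept its highest class in 2 of 6, so no order of the classes is given by Rpb3. With gaps of 5 kb, 54.6% of shared, 38.5% of dRing-alone and 34.5% of E(z)-alone regions had another of their class near, and with 20 kb 73.3%, 69.0% and 63.9%. The cause of these shifts was not tested. Depth is unknown, so the absence of a peak does not show the absence of the protein.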
